A study of Mus musculus with 32 samples.

Results

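The genes described here encode the mitochondrial calcium uniporter complex and the transporters that work beside it. They are 6 of the 54838 genes in the table, listed by name with earlier results of these data known: *Mcu*, *Smdt1*, *Micu2*, *Micu3*, *Slc8b1* and *Letm1*. All 6 passed the filter on low counts in every comparison. Bulk RNA sequencing was performed on skeletal muscle (tibialis anterior, per the study) of wild-type (WT) and *Mtm1* knockout (KO) mice. *Mtm1* encodes myotubularin, a phosphoinositide phosphatase whose loss causes X-linked myotubular myopathy. Mice of the C57BL6/J background were sampled on postnatal days 1, 14, 21 and 35 (P1, P14, P21 and P35), with 4 WT and 4 KO libraries at each age and 32 in all. The KO allele is a whole-body deletion within *Mtm1* (exon 4), so its loss is not limited to muscle fibres.

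Calcium enters the mitochondrial matrix through the uniporter, a channel of the inner membrane. MCU forms the pore, and EMRE, the product of *Smdt1*, is a small subunit that the pore needs in order to conduct and that links it to its gatekeepers. MICU2 and MICU3 are EF-hand proteins of this kind, which keep the channel shut at low cytosolic calcium and open it as calcium rises. NCLX, the product of *Slc8b1*, exchanges matrix calcium for sodium, and LETM1 is an inner membrane protein of cation and proton exchange that is needed for mitochondrial potassium balance. In skeletal muscle, calcium released for contraction also enters mitochondria, where it activates dehydrogenases that feed the respiratory chain.

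Total expected counts ran from 49321035 to 85631408 per library. *Mtm1* itself stood at 5.26 to 6.02 CPM (counts scaled to a common library size) in the WT libraries at P1 against 2.32 to 3.91 in the KO libraries, and at 20.7 to 24.9 against 3.32 to 3.95 at P35, so every KO library lay below every WT library at those ages. All 8 muscle fibre markers were detected at every age. The library KO replicate 4 at P1 had the highest *Mtm1* level of its group (3.91 CPM) and the lowest *Mcu*, *Letm1* and *Slc8b1*. Fold changes at P1 of *Letm1*, *Mcu*, *Slc8b1* and *Micu3* are therefore also given without it. The share of counts from the mitochondrial genome had a median of 16.2% in WT and 10.4% in KO libraries at P35, and of 10.7% and 8.32% at P21.

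Stretches upstream of the RefSeq starts are shown because *Mcu*, *Smdt1* and *Micu2* moved one way in KO muscle and *Letm1* the other. They come from RefSeq promoter sequence (GRCm38.p6), cut to the part outside any annotated exon, and read 5′ to 3′ on the strand of the gene. Capitals mark matches to the CCAAT box (CCAAT, which reads ATTGG on the other strand), the GC box (GGGCGG, or CCGCCC) and the cyclic AMP response element (TGACGTCA). The stretch of *Mcu* lies at chr10:59616693-59616942 on the minus strand, that of *Smdt1* at chr15:82345796-82345953 on the plus strand, that of *Micu2* at chr14:57999263-57999322 on the minus strand and that of *Letm1* at chr5:33782818-33782967 on the minus strand. The RefSeq start used for *Smdt1* is base 82346046, which lies inside the span that GENCODE gives the gene, so its stretch is upstream of that start only. That of *Letm1*, base 33782717, also lies inside its GENCODE span. The bases between this start and the *Letm1* stretch shown belong to an annotated exon of *Letm1*.
Mcu: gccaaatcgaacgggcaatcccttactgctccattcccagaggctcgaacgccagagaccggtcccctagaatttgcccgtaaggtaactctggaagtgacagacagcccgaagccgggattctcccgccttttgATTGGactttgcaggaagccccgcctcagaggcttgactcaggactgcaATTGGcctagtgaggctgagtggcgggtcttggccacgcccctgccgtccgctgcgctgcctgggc
Smdt1: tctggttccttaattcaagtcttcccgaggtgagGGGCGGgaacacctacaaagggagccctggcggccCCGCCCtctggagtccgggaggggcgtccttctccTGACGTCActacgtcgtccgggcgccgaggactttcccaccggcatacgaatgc
Micu2: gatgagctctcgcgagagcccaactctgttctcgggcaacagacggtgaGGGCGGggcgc
Letm1: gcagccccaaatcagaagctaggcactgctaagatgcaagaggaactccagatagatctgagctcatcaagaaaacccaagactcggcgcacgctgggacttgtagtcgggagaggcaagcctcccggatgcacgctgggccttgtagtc

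Within 250 bases upstream of the start, *Mcu* held 2 CCAAT boxes and *Letm1* held 1 with 3 GC boxes, all of them closer to the start than the stretch of *Letm1* shown. The window of *Smdt1* held 3 GC boxes and 1 cyclic AMP response element, and that of *Micu2* held 1 GC box. Of 32851 mouse promoters, 33.8% held a CCAAT box, 32.7% a GC box and 1.55% the TGACGTCA element on either strand. No match was found in these 4 windows to the E-box CAGCTG, which 13.0% of promoters held, to the ERR site AAGGTCA, held by 4.08%, or to the ETS site CCGGAAG, held by 6.91%. All matches of *Letm1* lay within an annotated exon of that gene, as did the *Smdt1* GC box at -73. The GC box thus stood in windows of genes that rose and, within that exon only, of the gene that fell.

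In GRCm38, *Mcu* spans chr10:59446984-59616692 and *Letm1* chr5:33739673-33782817. *Micu2* spans chr14:57916261-57999262, *Slc8b1* chr5:120511168-120534024, *Micu3* chr8:40307458-40386308 and *Smdt1* chr15:82338959-82349091. Exons of *Smdt1* share 245 bp with *Pheta2* on the same strand, so its counts are uncertain where the counting could split reads between the genes. Exons of *Micu3* share 202 bp with *Fgf20* on the opposite strand.

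The first question was whether these genes differ between KO and WT muscle at each age. At P35 all 6 had changed (adjusted *P*<0.01), *Mcu*, *Smdt1*, *Micu2* and *Slc8b1* being higher and *Micu3* and *Letm1* lower in KO muscle. Over all 15595 genes tested at P35, 24.5% changed, 12% being higher and 12.5% lower. Since the members were not chosen blind to these data, shares of all genes are given as description and not as a test. At P21 *Micu2* was higher and *Letm1* lower, 2 of 6 members where 8.13% of all genes changed, 4.74% being higher and 3.39% lower. Under the stricter rule for a differentially expressed gene (DEG), which adds a change of over 1.5-fold in either direction, *Micu2* at P35 was the sole member called, against 16% of genes. In bulk muscle, fewer cells of a type and less RNA per cell cannot be told apart.

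**Figure D1:**
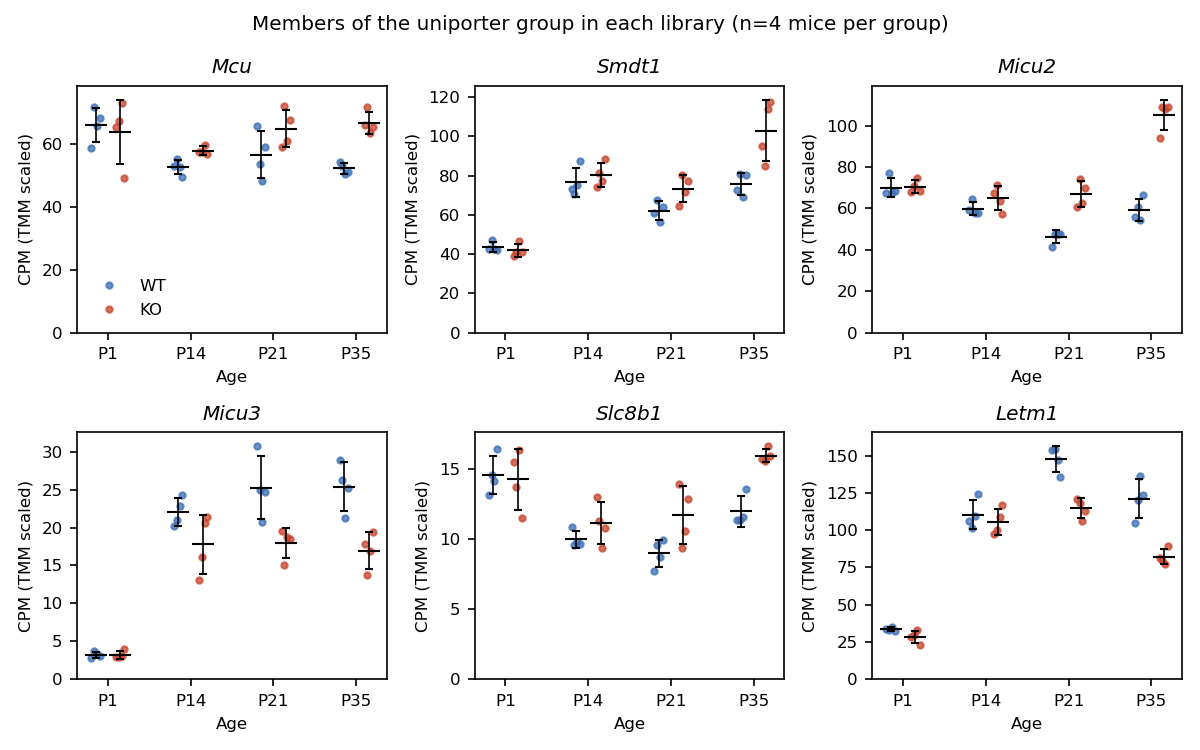
Level of each of the 6 genes (CPM on TMM-scaled library sizes, vertical axes from 0) by age, with 4 WT (blue) and 4 KO (red) libraries per age as points and mean ± SD in black. At P35 the KO libraries lie wholly above WT for *Mcu*, *Smdt1*, *Micu2* and *Slc8b1* and wholly below for *Micu3* and *Letm1*, and at P1 the genotypes overlap for all 6.

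The pore gene *Mcu* stood at 54.4, 53.0, 50.4 and 51.1 CPM in the WT libraries at P35 and at 66.0, 71.7, 63.4 and 65.3 CPM in the KO libraries. All KO libraries were above all WT libraries. The difference was 0.38±0.067 on the log2 scale (SE, *n*=4 against 4, adjusted *P*=0.00203). At P21 WT libraries held 65.6, 53.7, 48.2 and 59.0 CPM against 59.1, 72.0, 61.0 and 67.5 CPM for KO, with overlap and a log2 fold change of 0.21 (adjusted *P*=0.158). At P14 the KO libraries (56.7 to 59.8 CPM) all lay just above the WT libraries (49.6 to 55.2 CPM), with a log2 fold change of 0.13 that did not pass the test (adjusted *P*=0.656).

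*Smdt1*, the gene of the essential subunit EMRE, stood at 72.7, 81.0, 69.2 and 80.1 CPM in WT at P35, against 95.3, 84.8, 114 and 118 CPM in KO libraries. The groups did not overlap, although KO replicate 2 was close to the highest WT library. It rose by 0.47±0.11 on the log2 scale (SE, adjusted *P*=0.00847), the weakest call of the 6 at that age. Leaving out a library ended this call in 7 of 8 cases, with adjusted *P* from 0.0143 to 0.0343. It was also lost with RLE scaling (adjusted *P*=0.0118) and with mitochondrially encoded genes removed (adjusted *P*=0.0109). At P21 the level was 62.2±4.83 CPM (SD, *n*=4) in WT and 73.4±7.02 CPM in KO muscle, and the difference did not pass (log2 fold change 0.25, adjusted *P*=0.0662).

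The gatekeeper gene *Micu2* had the largest log2 fold change of the 6 at P21 and at P35. At P35 the WT libraries held 55.6, 60.9, 54.3 and 66.3 CPM, against 94.0, 109, 108 and 109 CPM for KO. Every KO library exceeded every WT library, and the fold change was 1.80 (log2 0.85±0.086 SE, adjusted *P*=1.53e-04). At P21 WT libraries held 41.5, 47.8, 47.9 and 47.8 CPM and KO libraries 60.6, 74.3, 62.6 and 70.0 CPM, again without overlap. The rise there was 0.54±0.088 on the log2 scale (SE, adjusted *P*=0.00332), and the call was lost without KO replicate 4 (adjusted *P*=0.0120). At P14 the groups overlapped, at 59.8±3.17 CPM (SD) in WT and 65.0±5.91 CPM in KO muscle.

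*Micu3*, the other gatekeeper gene among the 6, went the opposite way. At P35 it stood at 28.9, 26.3, 21.2 and 25.2 CPM in WT against 17.8, 13.7, 16.9 and 19.4 CPM in KO libraries. The KO libraries were all lower, by -0.56±0.12 on the log2 scale (SE, adjusted *P*=0.00635). This call was lost in 5 of 8 fits that left out a library (adjusted *P* 0.0133 to 0.0184 where lost). At P21 the 4 WT libraries held 30.7, 24.9, 20.7 and 24.8 CPM, and those of KO held 19.5, 15.05, 18.7 and 18.5 CPM. The P21 groups did not overlap, but the log2 fold change of -0.48±0.12 (SE) did not pass at 0.01 (adjusted *P*=0.0199), whereas DESeq2 called it (adjusted *P*=0.00183).

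For efflux, *Slc8b1* stood at 11.3, 11.4, 11.6 and 13.6 CPM in WT at P35, against 15.6, 15.5, 16.6 and 15.9 CPM for KO. The KO values were tightly grouped and all above WT, by 0.44±0.084 on the log2 scale (SE, adjusted *P*=0.00289). This call ended in 4 of 8 fits that left out a library, with adjusted *P* of 0.01001 to 0.0128. At P21 the KO libraries spread from 9.36 to 13.9 CPM and overlapped WT (7.71 to 9.90 CPM), with a log2 fold change of 0.39 (adjusted *P*=0.0668).

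*Letm1*, of cation exchange and potassium balance, was lower in KO muscle at both late ages. At P35 WT libraries held 105, 120, 137 and 123 CPM and KO libraries 81.4, 79.97, 77.6 and 89.2 CPM, with no overlap. It fell by 0.54±0.090 on the log2 scale (SE, adjusted *P*=0.00151). At P21 WT libraries held 154, 154, 147 and 136 CPM and KO libraries 121, 118, 106 and 113 CPM, also without overlap. At that age it fell by 0.36±0.065 on the log2 scale (SE, adjusted *P*=0.00583), and 7 of 8 fits that left out a library lost the call (adjusted *P* 0.0101 to 0.0205 where lost).

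At P35 all 6 members had groups that did not overlap, where 39.6% of all genes did so, and at P21 3 of 6 did (*Micu2*, *Micu3* and *Letm1*) where 24.7% of genes did. The corresponding counts were 1 of 6 at P14 against 4.84% of genes, namely *Mcu*, and 0 of 6 at P1 against 8.62%. Leaving out WT replicate 2 or KO replicate 3 at P35 each reduced the members called from 6 to 3, and leaving out KO replicate 4 at P21 reduced them from 2 to 0. Calls over all genes fell as well in these fits. At P35 they went from 3827 of 15595 genes to 2937 of 15942 and 2542 of 15719, and at P21 from 1234 of 15179 to 596 of 15342.

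**Figure D2:**
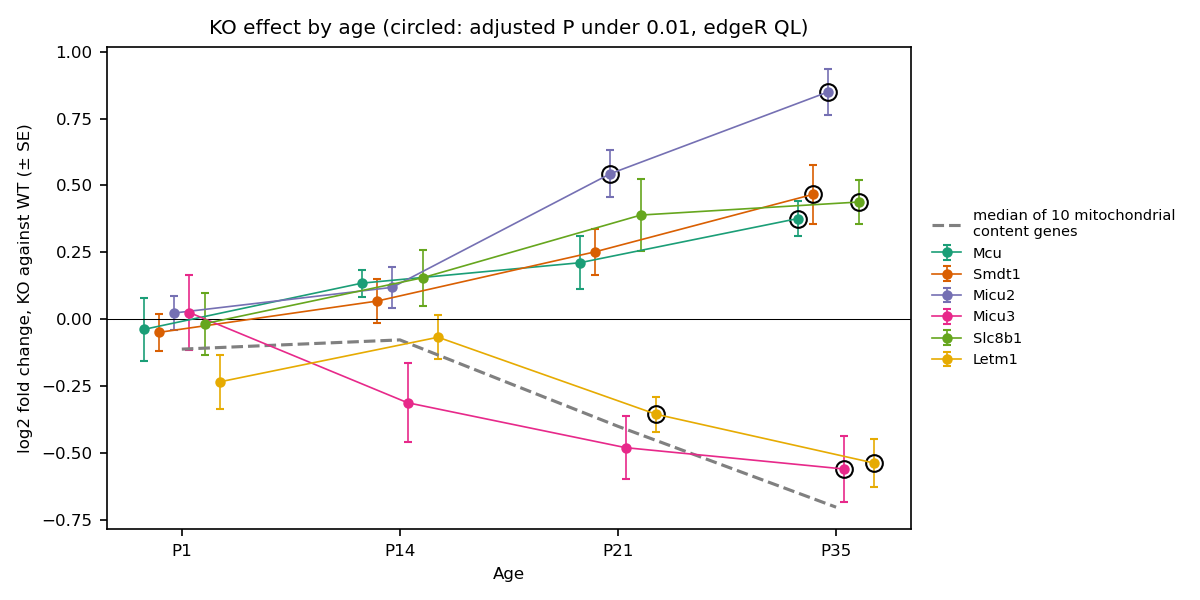
log2 fold change of KO against WT at each age (± SE, 4 against 4 libraries) for the 6 genes, circled where the adjusted *P* was below 0.01, with the median of 10 mitochondrial content genes as a dashed line. *Micu2* reaches 0.85 at P35 while *Micu3* and *Letm1* reach -0.56 and -0.54, and the dashed line reaches -0.70.

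At P1 and P14 no member was called, where 0.0442% and 0.0381% of genes were. At an adjusted *P* below 0.05 by edgeR 0 members passed at either age, where 44 of 18100 and 15 of 15728 genes did. DESeq2 called 0 members at either age, with 204 of 17974 and 99 of 18854 genes. *Letm1* at P1 ranged from 32.6 to 35.2 CPM in WT and from 22.7 to 32.7 CPM in KO libraries, a log2 fold change of -0.23 (adjusted *P*=0.444), or of -0.14 (adjusted *P*=0.351) without KO replicate 4. Without that library *Mcu* at P1 moved from -0.04 to 0.07, *Slc8b1* from -0.02 to 0.07 and *Micu3* from 0.02 to -0.10. At P14 same-numbered WT and KO libraries deviated together, and a fit with the replicate number as a block called 256 genes (1.63%) in place of 6. It still called 0 members, and *Micu3* came nearest (log2 fold change -0.33±0.073 SE, adjusted *P*=0.0288).

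Whether the KO effect itself differed between successive ages was tested as an interaction over all 32 libraries. No member passed in any of the 3 steps, where 0.0161%, 0.425% and 0.463% of genes did, and DESeq2 also called 0 members. The nearest was *Micu2* from P14 to P21, whose KO effect grew by 0.41±0.11 on the log2 scale (SE, adjusted *P*=0.0579). From P21 to P35 the same gene gave 0.29 (adjusted *P*=0.163). At an adjusted *P* below 0.05 by edgeR 0 members passed in each of the 3 steps, where 5, 263 and 406 of 18583 genes did. The ages P14 and P35, which are not successive, were compared by the same test after these results had been seen. Between them 2 of 6 members passed, where 8.53% of genes did. The KO effect on *Micu2* grew by 0.70±0.11 on the log2 scale (SE, adjusted *P*=8.45e-05), and this call held in all 16 fits that left out a library of either age and with library totals (1.05). That on *Letm1* fell by 0.50±0.13 (SE, adjusted *P*=0.00702), a call lost in 11 of those 16 fits (adjusted *P* 0.0110 to 0.0204), without the filter on low counts, with the libraries of those ages alone and with library totals (-0.16, adjusted *P*=0.250). The other members did not pass, *Smdt1* being nearest (0.37, adjusted *P*=0.0511), and for these an effect called at P35 and not at P14 is not shown to differ between the ages. With library totals *Mcu* (0.56) and *Smdt1* (0.71) passed as well, where 16.8% of genes did.

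The course over age in WT muscle was largest after birth. From P1 to P14 all 6 members changed, where 70.5% of genes did. *Micu3* rose from 3.21±0.394 to 22.1±1.87 CPM (SD, *n*=4; log2 fold change 2.77±0.10 SE), *Letm1* from 33.6±1.11 to 110±9.66 CPM (1.70±0.070 SE) and *Smdt1* from 43.7±2.42 to 76.5±7.49 CPM (0.80±0.077 SE). *Mcu* (-0.34), *Micu2* (-0.24) and *Slc8b1* (-0.56) fell, so the pore gene and *Micu2* went down while *Micu3* and *Letm1* went up. The call of *Micu2* was lost in 4 of 8 fits that left out a library (adjusted *P* 0.0117 to 0.0190) and in the fit over all 32 libraries (adjusted *P*=0.0102). Scaling by library totals moved the median of all genes to -0.85 in this step and *Smdt1* to 0.02 (adjusted *P*=0.719), so the rise of *Smdt1* holds relative to other genes. *Micu3* (1.997) and *Letm1* (0.93) kept their rise under that scaling, and the falls of *Mcu* (-1.11), *Micu2* (-1.004) and *Slc8b1* (-1.32) were larger, where 65.8% of genes were lower. From P14 to P21 in WT muscle *Letm1* rose by 0.41 and *Micu2* fell by 0.38 on the log2 scale, 2 of 6 members where 9.93% of genes changed. Both of these calls were lost in most fits that left out a library, in 6 of 8 for *Letm1* and in 7 of 8 for *Micu2*. From P21 to P35 in WT no member changed at 0.01 by edgeR, where 4.77% of genes did. At an adjusted *P* below 0.05, 4 members passed, where 2656 of 15039 genes did. DESeq2 called 2 members in that step, and 2098 of 15527 genes.

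In KO muscle the rise of *Micu3* (2.43±0.17 SE), *Letm1* (1.87±0.12 SE) and *Smdt1* (0.91±0.087 SE) from P1 to P14 was again called, 3 of 6 members where 62.6% of genes changed. *Mcu* (-0.17), *Micu2* (-0.15) and *Slc8b1* (-0.39) were not called, although *Mcu* (adjusted *P*=0.00342) and *Slc8b1* (adjusted *P*=0.00690) were without KO replicate 4 at P1. From P14 to P21 no member changed by edgeR or DESeq2, where 10.3% of genes changed by edgeR. At an adjusted *P* below 0.05 by edgeR 0 members passed, where 4299 of 15585 genes did. From P21 to P35 *Micu2* rose from 66.9±6.37 to 105±7.38 CPM (SD; log2 fold change 0.67±0.085 SE, adjusted *P*=0.00215) and *Letm1* fell from 115±6.73 to 82.0±5.04 CPM (log2 fold change -0.47±0.070 SE, adjusted *P*=0.00344), 2 of 6 members where 7.60% of genes changed. The call of *Letm1* was lost in 3 of 8 fits that left out a library, with adjusted *P* of 0.0112 to 0.0135.

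Levels can be compared between genes only per length. Per kb of exon, WT muscle at P35 held 51.2 CPM per kb of *Smdt1*, 19.2 of *Micu2*, 12.6 of *Letm1*, 7.53 of *Mcu*, 4.13 of *Micu3* and 3.45 of *Slc8b1*. In KO muscle at P35 the order was *Smdt1* (69.6 CPM per kb), *Micu2* (34.1), *Mcu* (9.60), *Letm1* (8.50), *Slc8b1* (4.60) and *Micu3* (2.76). The libraries of *Mcu* and *Letm1* overlapped there, as did those of *Micu3* and *Slc8b1* in WT muscle at P35, so these neighbours did not differ beyond their spread. At P1 *Micu3* was the lowest in both genotypes, at 0.521 CPM per kb in WT and 0.525 in KO muscle. The other overlapping neighbours were *Letm1* and *Micu2* in WT at P21, *Slc8b1* and *Letm1* in KO at P1, and *Slc8b1* and *Micu3* in KO at P14 and P21.

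The mitochondrial share and the composition of the libraries move the scale on which these fold changes are read. With library totals in place of TMM, the all-gene median at P35 went from a log2 fold change of 0.04 to 0.44, and at P21 from 0.01 to 0.20. On that scale *Mcu* (0.78), *Smdt1* (0.87), *Micu2* (1.26) and *Slc8b1* (0.84) stayed higher in KO muscle at P35, as 40.5% of all genes were (3.49% were lower). *Letm1* (-0.14, adjusted *P*=0.224) and *Micu3* (-0.16, adjusted *P*=0.226) stayed lower but lost their calls, and *Letm1* at P21 did too (-0.17, adjusted *P*=0.0685). *Mcu* (0.40, adjusted *P*=0.00530) and *Smdt1* (0.44, adjusted *P*=0.00443) gained a call at P21, where 16.8% of genes were higher on that scale. The fall of *Letm1* and *Micu3* is thus a fall relative to other genes.

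**Figure D3:**
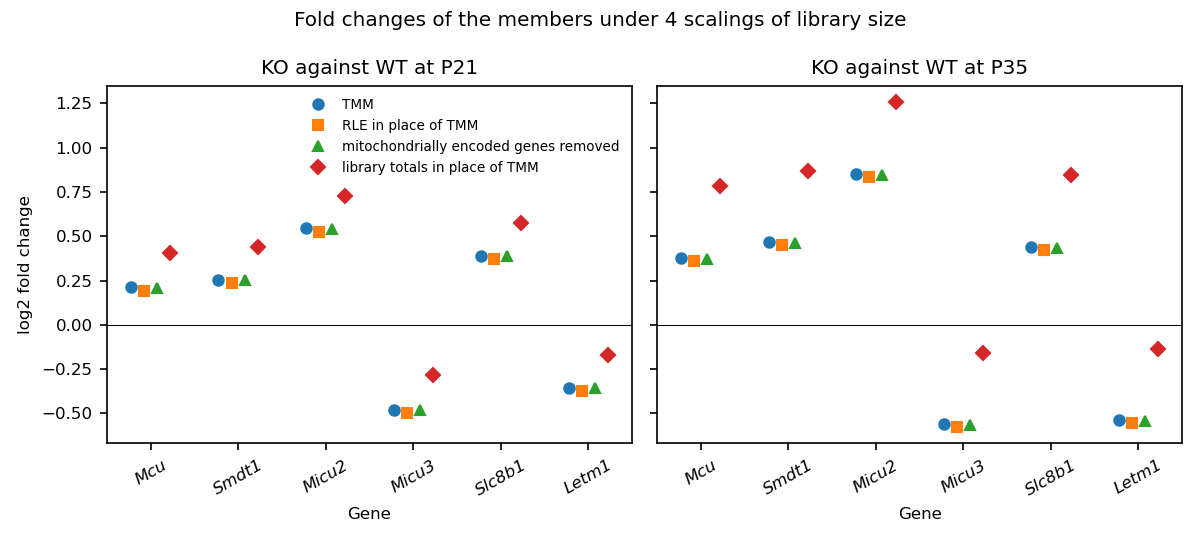
log2 fold change of KO against WT at P21 (left) and P35 (right) for the 6 genes under 4 scalings of library size: TMM, RLE, TMM without mitochondrially encoded genes, and library totals. The first 3 differ little in fold change, while library totals lift every gene, *Micu2* at P35 from 0.85 to 1.26 and *Letm1* from -0.54 to -0.14.

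Ratios between members within a library do not depend on any scaling. They were added after the fold changes had been seen, as 20 ratios to *Mcu* (5 genes at 4 ages), each with a two-sided exact permutation test over 70 assignments, whose smallest possible *P* is 0.0286. At P35 *Micu2* counts were 1.02 to 1.30 times those of *Mcu* in WT and 1.42 to 1.70 times in KO libraries, a log2 difference of 0.48. *Micu3* counts were 0.422 to 0.531 of those of *Mcu* in WT and 0.191 to 0.297 in KO libraries, a difference of -0.94, and *Letm1* fell from 1.92 to 2.71 times *Mcu* in WT to 1.11 to 1.37 times in KO, a difference of -0.91. All 3 ratios were without overlap between genotypes at P35 and at P21, where the differences were 0.33, -0.69 and -0.57. The *Micu2* difference at P21 was 0.20 without WT replicate 1. Among the other ratios, *Micu3* at P14 (0.379 to 0.489 of *Mcu* in WT against 0.228 to 0.377 in KO, a difference of -0.47) and *Letm1* at P1 (0.463 to 0.569 against 0.430 to 0.461, a difference of -0.20) did not overlap either. Each of these 8 reached the smallest *P*, which became 0.0714 when adjusted over the 20 ratios, so none passed at 0.05. With 4 libraries per group none could pass unless most of the 20 ratios reached that smallest *P*. The adjusted test therefore cannot decide whether a single ratio differs. *Smdt1* and *Slc8b1* relative to *Mcu* differed by 0.08 (exact permutation *P*=0.600) and 0.07 (*P*=0.486) at P35.

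**Figure D4:**
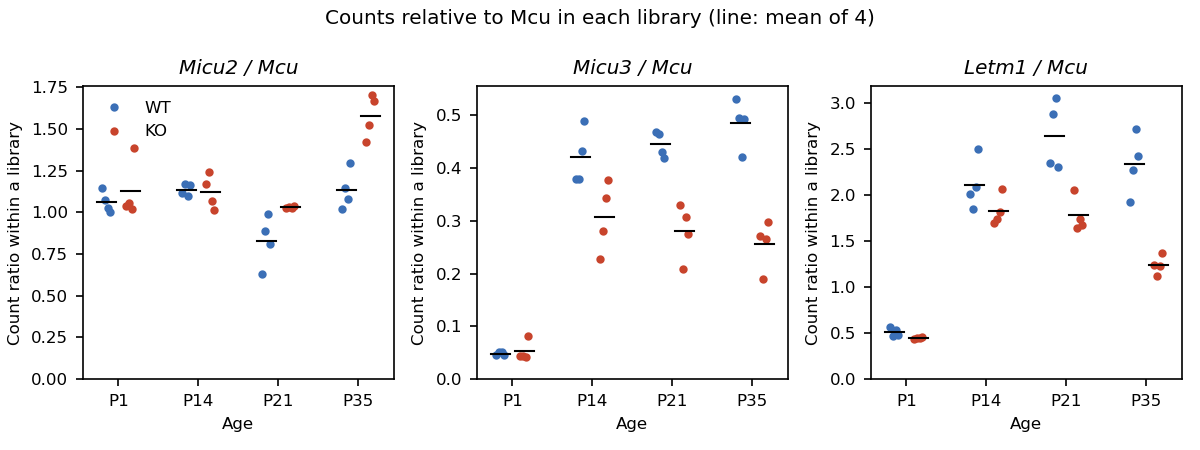
Counts of *Micu2*, *Micu3* and *Letm1* divided by those of *Mcu* within each library, by age, for WT (blue) and KO (red) with the mean of 4 as a line. KO libraries lie above WT for *Micu2* and below WT for *Micu3* and *Letm1* at P21 and P35, and the *Micu3* ratio is near 0.05 in both genotypes at P1.

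Other genes of the pathway were described by list at P35. Of 5 further channel subunits and regulators, 1 was higher and 3 lower in KO muscle. *Ghitm*, which encodes an inner membrane protein of the matrix calcium and proton exchange, fell by 0.49 on the log2 scale (adjusted *P*=0.00102). *Mcub*, the pore paralogue that reduces conductance, was singled out after its values were seen, and rose from 0.66 to 0.90 CPM in WT to 1.37 to 1.96 CPM in KO libraries (log2 fold change 1.13±0.19 SE, adjusted *P*=0.00167).

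Of 5 genes of EMRE turnover and MICU maturation, 2 fell and 0 rose at P35, namely the subunits of the inner membrane m-AAA protease *Spg7* (-0.55) and *Afg3l2* (-0.56). Of 9 genes of the outer membrane and its contacts with the endoplasmic reticulum, 5 fell and 0 rose, among them the channel *Vdac1* (-0.75) and the tether *Mfn2* (-0.64). Of 13 mitochondrial enzymes and carriers that respond to calcium, 10 fell and 1 rose. The aspartate/glutamate carrier *Slc25a12* fell from 795±56.5 to 371±21.9 CPM (SD; log2 fold change -1.07, adjusted *P*=6.34e-05), and the ATP-Mg/phosphate carrier *Slc25a24* rose from 8.34±1.39 to 32.1±6.20 CPM (1.96, adjusted *P*=7.39e-05). Of 10 genes taken as a measure of mitochondrial content, 8 fell and 0 rose, with a median of -0.70 beside 0.04 for all genes tested, and *Cs* (-0.81) and *Ndufs1* (-0.88) were the clearest. *Letm1* and *Micu3* thus moved in the direction of these content genes, and *Mcu*, *Smdt1*, *Micu2* and *Slc8b1* in the other.

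None of the 3 plasma membrane sodium/calcium exchangers changed at P35, with *Slc8a1* at -0.28 (adjusted *P*=0.339) and *Slc8a3* at 0.16 (adjusted *P*=0.401), nor did the LETM1 relatives *Letm2* (-0.21) and *Letmd1* (-0.10). With library totals, 4 of the 10 content genes fell and 1 rose (median -0.30). Of the 13 enzymes and carriers that respond to calcium, 7 fell and 1 rose (median -0.40). Of the 9 outer membrane and contact genes, 1 fell and 1 rose (median -0.07). In the regulators and the EMRE list 0 fell and 1 rose each, and their medians turned from -0.38 and -0.29 to 0.02 and 0.11. The falls of *Ghitm*, *Spg7* and *Afg3l2* were thus not called with library totals. Of the 3 exchangers, 1 was called higher with library totals (median 0.56). Of all genes, 40.5% were higher and 3.49% lower with that scaling. On that scale *Slc8a1* (0.14), *Letm2* (0.19) and *Letmd1* (0.30) also turned positive.

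**Figure D5:**
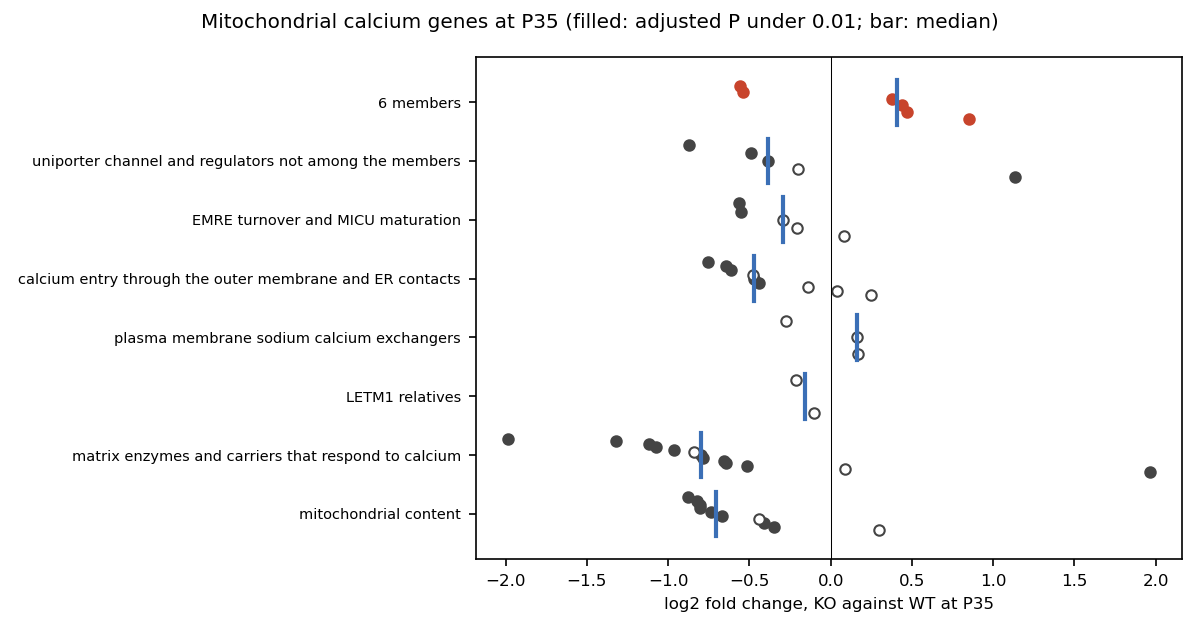
log2 fold change of KO against WT at P35 for the 6 members (red) and the genes of 7 pathway lists (grey), each point a gene, filled where the adjusted *P* was below 0.01, with the list median as a blue bar. The list of enzymes and carriers that respond to calcium and the content list lie mostly left of 0 (medians -0.80 and -0.70). Of the members, 4 of 6 lie right of it.

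Markers of other cells moved with genotype at P35. Of 6 macrophage markers 3 were higher in KO muscle (summed 62.4 to 78.1 CPM in WT, 73.3 to 104 CPM in KO), and 4 were at P21. Of 4 adipocyte markers 3 were higher (1.98 to 8.35 CPM against 12.7 to 48.3 CPM), of 5 endothelial markers 2 were lower (311 to 578 CPM against 272 to 339 CPM), and of 8 muscle fibre markers 1 was lower (139294 to 195187 CPM against 84744 to 113049 CPM). No marker on these lists was at 0 in all libraries of P35. Of 3 satellite cell markers 1 was lower, and of 5 fibroblast, 4 Schwann cell, 5 red blood cell and 5 keratinocyte markers (1 of these passing the filter) 0 were called at P35 by edgeR. Their part in the differences of the 6 members was not tested.

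The genes whose levels were most like each member over the 24 libraries of P14, P21 and P35, by Pearson's r of log2 CPM among 12990 genes, were *Trim72* (0.90) and *Rtkn* (0.88) for *Mcu*, *Nedd8* and *Lsm4* (both 0.97) for *Smdt1* and *S100a10* and *Tspan17* (both 0.95) for *Micu2*. For *Micu3* they were *Phkg1* (0.94) and *Gm49477* (0.93), for *Slc8b1* *Zfp688* (0.92) and *Rnd2* (0.91), and for *Letm1* *Aifm1* (0.98) and *Ogdh* (0.97). Among the members themselves *Micu2* and *Letm1* gave r=-0.89 and *Micu2* and *Smdt1* r=0.83. These values describe shared courses over age and genotype in the same libraries and carry no test.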

How the data were processed

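Poly(A) RNA libraries were made with a directional kit. Per the labels, reads were aligned with STAR 2.6.1 to GRCm38 and the authors deposited RSEM 1.2.22 expected counts, 1 column per library, not normalized. The study's methods name HTSeq as the counter, and which annotation and strand setting were used is not given in the sources used here. Of the values, 4.26% were not whole, and counts were rounded. All 32 columns were matched to libraries by title, and 0 columns were left unused. Groups came from the labels, and nothing states which animals were littermates, so *P* values measure the spread between these libraries. No pair of libraries agreed within sampling noise (chi-square per gene of at least 10.5 over 48 pairs).

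edgeR 4.0.16 (R 4.3.3) with filterByExpr, TMM scaling and the two-sided quasi-likelihood test was run on the whole table for each pair of groups, and for interactions over all 32 libraries, with *P* adjusted by Benjamini-Hochberg across every gene tested. A gene was changed at an adjusted *P* below 0.01 and a DEG if also changed over 1.5-fold. Levels are CPM on TMM-scaled sizes over 18583 genes, per kb of exon (GENCODE M21 exon union) where genes are compared. The scripts were tested on simulated data. Alternatives were DESeq2 1.42.0, RLE scaling, library totals, removal of the 37 mitochondrially encoded genes, no filter, all 32 libraries in 1 fit, other thresholds, newer edgeR settings, a replicate block and leaving out each library. WT and KO libraries of the same number had deviations from their group means that correlated at 0.29 to 0.73 at P14 (all 4 pairs over 0.1), at -0.35 to 0.01 at P1, -0.06 to 0.29 at P21 and -0.10 to 0.23 at P35, so the numbers pair libraries at P14 only. Named genes were the 6 members and, from each pathway list, the 2 with the smallest adjusted *P* at P35. *Mcub* was named after its values were seen. 1 gene of the lists is not reported here, and list counts leave it out. The interaction between P14 and P35 and the ratios to *Mcu* were added after seeing the data. The members and lists were chosen with earlier results of these data known. Promoter sequences were held for *Mcu*, *Smdt1*, *Micu2* and *Letm1*. For the 6 members counting error is small at these depths (49321035 to 85631408 counts per library), and the spread between libraries sets the precision.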

Additional observations from a re-analysis of the deposited data

Results flagged for a closer look

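Of 48 groups of 4 libraries (6 genes in 8 groups), 7 held a library whose gap to its nearest neighbour exceeded Dixon's critical share of the group's range, and chance flags about 1 in 20 groups. The same WT library at P1, replicate 2, stood above the other 3 for both *Smdt1* (47.3 CPM) and *Micu2* (77.1 CPM). For *Micu2*, a WT library at P21 stood below its group at 41.5 CPM and a KO library at P35 below its group at 94.0 CPM. *Micu3* stood apart at 4.03 CPM in a KO library at P1, the replicate 4 that also had the highest *Mtm1*. *Slc8b1* stood above its group at 10.8 CPM in a WT library at P14 and at 13.6 CPM in a WT library at P35. None of these values crossed into the other genotype's range at P21 or P35. The KO effect differed between P14 and P35, by an interaction test over all 32 libraries added after the data were seen, for *Micu2* (0.70 on the log2 scale) and *Letm1* (-0.50). That call of *Letm1* was lost in 11 of 16 fits that left out a library and with library totals (-0.16, adjusted *P*=0.250).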

How the results depend on the processing

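Of 1536 recomputed fold changes of members, 1407 kept their direction and their side of the threshold, 73 lost a call, 22 gained one and 34 changed sign, the latter all at fold changes that were not called. The DEG thresholds left 0 members at P21, 1 at P35, 3 for P14 against P1 and 0 for P21 against P14 in WT, and 1 for P35 against P21 in KO. In the same order they left 709 of 15179, 2496 of 15595, 9601 of 17435, 848 of 15337 and 631 of 15734 genes. At an adjusted *P* below 0.05, 4 members passed for P35 against P21 in WT and 4 in KO. Of all genes, 2656 of 15039 and 3755 of 15734 did. DESeq2 called 2 and 4 members there, with 2098 of 15527 and 2877 of 17375 genes. The fit over all 32 libraries called 1 and 4 members, with 1573 and 2729 of 18583 genes. The replicate block left 3 members at P35 (*Smdt1*, *Slc8b1* and *Micu3* had adjusted *P* of 0.0197, 0.0120 and 0.0108), where 2868 genes were called in place of 3827. It left 0 for P21 against P14 in WT, where 144 genes were called in place of 1523. For P35 against P21 in KO it left 1, *Letm1* being lost (adjusted *P*=0.0194), where 80 genes were called in place of 1196. The numbers did not pair libraries at P35, and pairing between ages was not checked, so these losses are not read as results about the members. At P14, where the numbers pair, the block changed no member's call. Library totals gave 5 for P14 against P1 in KO and 4 for P35 against P21 in KO, where 71.0% and 11.9% of genes were called, and non-overlap of 2 members at P14 and 5 at P21, where 5.60% and 35.4% of genes did not overlap. For the change of the KO effect from P14 to P35, added after the data were seen, 1 member passed without the filter and 1 with the 16 libraries of those ages. Of all genes, 1262 of 32355 and 1227 of 16344 passed in these fits.

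With library totals these turned sign: *Slc8b1* at P1 (0.0055), *Letm1* at P14 (0.0195), *Spg7* (0.0557), *Slc8a1* (0.124) and *Letmd1* (0.0718) at P21, *Slc8a1* (0.138), *Letm2* (0.188) and *Letmd1* (0.297) at P35, *Mcu* for P21 against P14 in WT (-0.0757), *Micu2* for P21 against P14 in KO (-0.0223), *Micu3* for P35 against P21 in KO (0.0639), and the interactions from P21 to P35 of *Micu3* (0.125) and *Letm1* (0.0301), and that from P14 to P35 of *Micu3* (0.0779). *Slc8a3* at P21 turned with DESeq2 (-0.00098), and *Micu3* near 0 for P21 against P14 in KO with DESeq2 (0.0046), RLE (0.0056), all libraries (0.0127) and the block (0.0146), and for P35 against P21 in WT with all libraries (0.0075). The cause was not tested.

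Leaving out each library gave 0 to 2 members at P21, 3 to 6 at P35, 0 to 2 for P21 against P14 in WT, 3 to 5 for P14 against P1 and 1 to 3 for P35 against P21 in KO, 1 to 2 for the change from P14 to P35, and 0 to 2 non-overlapping members at P1. The count of 5 members came without KO replicate 4 at P1. The count of 0 members at P21 came without KO replicate 4 at P21, and that of 3 at P35 without WT replicate 2 or KO replicate 3. Over all genes these fits called 583 to 935 at P21 and 2542 to 3622 at P35, against 1234 and 3827 with all libraries. For P21 against P14 in WT they called 440 to 2370 (1523 with all libraries) and for P14 against P1 in KO 9901 to 11284 (11091). For P35 against P21 in KO they called 223 to 1595 (1196), and for the change from P14 to P35 1110 to 1656 (1585). Uncalled values that changed sign ranged at P1 from -0.116 to 0.0667 for *Mcu*, -0.0123 to 0.0614 for *Micu2*, -0.101 to 0.0856 for *Micu3* and -0.0934 to 0.0734 for *Slc8b1*. At P21 *Slc8a1* ranged from -0.159 to 0.0382 and *Slc8a3* from -0.0880 to 0.105. For P21 against P14 in KO the ranges were -0.0331 to 0.0731 for *Micu2*, -0.113 to 0.0943 for *Micu3* and -0.0352 to 0.151 for *Slc8b1*. *Micu3* for P35 against P21 ranged from -0.149 to 0.0223 in KO and -0.0781 to 0.0879 in WT. The interaction from P14 to P21 of *Mcu* ranged from -0.00921 to 0.139, and that from P21 to P35 of *Slc8b1* from -0.0600 to 0.128. The ratios to *Mcu* of *Micu2*, *Micu3* and *Letm1* at P21 and P35 kept their sign without each library, with values from 0.20 to 0.42 for *Micu2*, -0.77 to -0.55 for *Micu3* and -0.64 to -0.50 for *Letm1* at P21, and from 0.43 to 0.54, -1.02 to -0.80 and -0.997 to -0.83 at P35.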
